A study of Mus musculus with 6 samples.

Results

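The genes described here carry a symbol that begins with Klhl (kelch-like) or Klhdc (kelch domain containing), and that symbol is the rule that picked them from the table. The deposited table holds 5 of them among 617 genes, namely Klhdc8b, Klhl33, Klhl38, Klhl11 and Klhl34. The GENCODE M21 annotation of the mouse genome names 46 protein-coding genes of these families, and the others were not analysed here. Kelch repeats fold into a propeller-shaped domain that binds other proteins. In most Klhl proteins that propeller follows a BTB domain and a BACK domain, and many of them act as substrate adaptors of the cullin ubiquitin ligase CUL3, which marks bound proteins for degradation or changed activity. Klhdc proteins carry kelch repeats without a BTB domain. In striated muscle the relatives KLHL40 and KLHL41 are known for keeping thin-filament proteins stable, and their loss causes nemaline myopathy.

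Neonatal wild-type mice of the strain labelled C57/BL6J were operated on at postnatal day 1 and right ventricular (RV) tissue was taken at postnatal day 7. Pulmonary artery banding (PAB) narrows the vessel with a tied thread, which raises the pressure the RV has to work against, and the sham group went without it. RNA was sequenced in 3 sham and 3 PAB libraries, and the sources used here do not say whether a library came from 1 pup or several, so the p-values below measure only the spread between these libraries, which may be technical. Neonates of either sex were used. The values are read counts per gene divided by 1 size factor per library, called normalized reads below. Size factors ran from 0.939 in PAB replicate 1 to 1.07 in sham replicate 2, so that 1 read was worth 0.935 to 1.07 normalized reads. The total depth of the libraries is unknown.

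PAB divided the 5 genes. Klhl33, Klhl38 and Klhdc8b stood lower after banding, with log2 fold changes of -2.77, -1.58 and -1.06, and Klhl34 and Klhl11 stood higher, with 2.65 and 1.24. All 5 passed limma's test at an unadjusted p under 0.05, with 3 lower and 2 higher, where 100% of all genes in the table passed, 53% of them lower and 47% higher. In each of the 5 genes the sham and PAB libraries did not overlap: every PAB value lay below every sham value in 3 genes, against 52.5% of all genes in the table, and above in 2, against 44.6%. The table was itself a selection on this same contrast, since the smallest absolute log2 ratio of group means among the 615 genes with both means above 0 was 1.00. The tests therefore describe how large each difference is beside the spread, and nothing about the family can be read from these shares. Klhdc8b lay just inside that limit, with a log2 ratio of group means of -1.06, and genes outside it were not analysed here. The median log2 fold change was -1.58 over the 3 lower members and 1.95 over the 2 higher members, beside -1.45 over 327 lower genes and 1.45 over 290 higher genes. Scaling by median ratio, which centres each library on the middle gene ratio of the table, would shift PAB relative to sham by 0.59 in log2 terms and leave 290 genes higher and 216 lower, with 2 members higher and 2 lower. It takes the middle gene as unchanged, which cannot hold in a table selected on this contrast, so it is no test of the calls. In whole tissue, fewer cells of a type and less RNA per cell cannot be told apart.

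**Figure D1:**
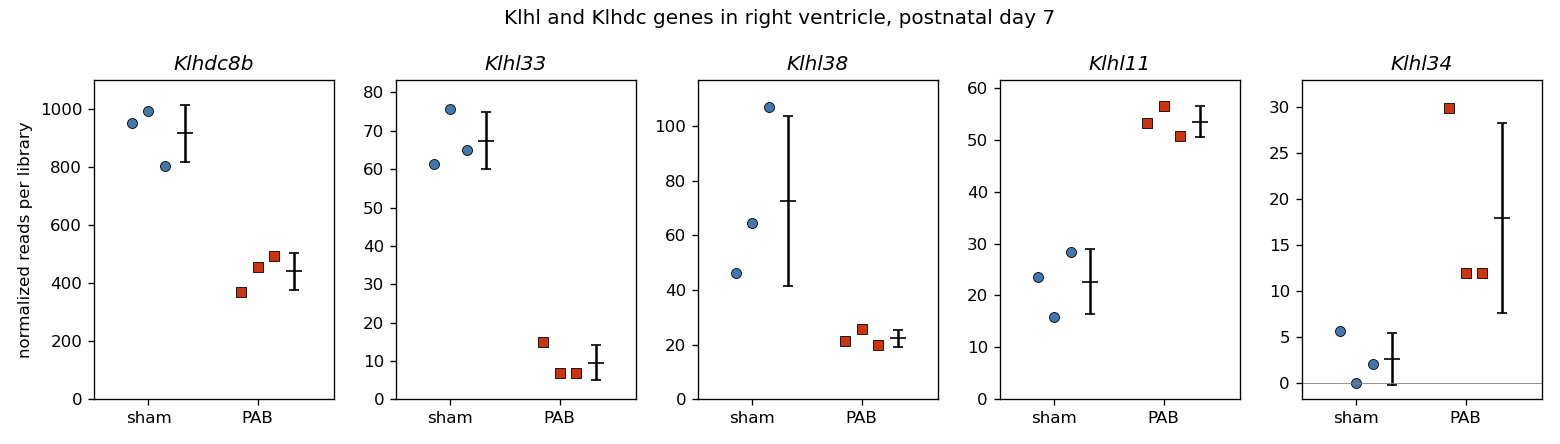
Normalized reads (vertical axes, linear, each gene on its own scale) of the 5 genes in 3 sham libraries (circles) and 3 PAB libraries (squares), in the order of replicates 1, 2 and 3, with the mean and SD beside them. No PAB value reaches into the sham range in any of the genes, and Klhl34 has 1 PAB library, replicate 1, at 29.8 against 11.9 in each of the others.

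Klhl33, a BTB-kelch gene on chromosome 14 (minus strand, 50888582 to 50897507 in GRCm38), was the most reduced of the 5. Sham replicates 1, 2 and 3 held 61.5, 75.7 and 65.0 normalized reads, and PAB replicates 1, 2 and 3 held 14.9, 6.94 and 6.95. Every sham library stood at more than 4 times the highest PAB library. The group means were 67.4 ± 7.43 (SD, n = 3) under sham and 9.60 ± 4.60 (SD, n = 3) after banding. The fitted log2 change of Klhl33 was -2.77 with a standard error of 0.41 and a Benjamini-Hochberg adjusted p of 0.000565 from limma, and by size it held place 27 among 327 decreases. Behind the PAB values stood 14, 7 and 7 reads, so counting error alone gives a coefficient of variation of 32.7%, against an observed 47.9%. In sham the observed 11.0% was close to the 12.0% that counting gives. Stretches of up to 154 bases of its transcripts recur at 95% identity or more in 83 other genes, so that some reads could have been assigned to more than 1 gene or dropped.

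Klhl38, also of the BTB-kelch type, lies on chromosome 15 (minus strand, 58314573 to 58324169). Its normalized reads were 46.3, 64.5 and 107.0 in sham replicates 1, 2 and 3, and 21.3, 25.8 and 19.9 in PAB replicates 1, 2 and 3. The sham libraries were spread widely and the PAB libraries lay close together. The group means were 72.6 ± 31.1 (SD, n = 3) under sham and 22.3 ± 3.09 (SD, n = 3) after banding. For Klhl38 limma gave a log2 change of -1.58 with a standard error of 0.38 and an adjusted p of 0.00351. The sham coefficient of variation was 42.8%, where counting error gives 11.7%, while in PAB it was 13.8%, below the 21.3% of counting error. Without sham replicate 3 the log2 fold change was -1.26 and stayed past the threshold. Of the exonic bases of Klhl38, 65.4% (1446 bases) overlap Gm15943, an antisense RNA on the opposite strand. The libraries were made with the NEBNext Ultra RNA kit, which differs from its directional version in that it does not mark strand, and a strand setting of the counting is not given in the sources used here. Reads from these 1446 shared bases therefore cannot be assigned to 1 of the 2 genes, the values of Klhl38 are uncertain for that reason, and Gm15943 itself was not analysed here.

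Klhdc8b, on chromosome 9 (minus strand, 108447636 to 108461581), encodes a kelch-repeat protein without a BTB domain that is known at the midbody of dividing cells and from a family with Hodgkin lymphoma. It was by far the most deeply sequenced of the 5. Sham replicates 1, 2 and 3 had 953.3, 993.2 and 804.4 normalized reads, and PAB replicates 1, 2 and 3 had 371.7, 457.2 and 493.7. Each PAB library was well under the lowest sham library. The group means were 917.0 ± 99.5 (SD, n = 3) under sham and 440.9 ± 62.6 (SD, n = 3) after banding. The log2 change of Klhdc8b in limma was -1.06 with a standard error of 0.23 and an adjusted p of 0.00219, place 292 among 327 decreases by size. Under median-ratio scaling Klhdc8b no longer passed, at -0.47 with an unadjusted p of 0.0608 in limma. The other 4 genes kept their direction and stayed past the threshold under that scaling. Since the scaling centres on genes selected as changed, neither outcome tests these genes. Klhl33 fell further than Klhdc8b within the same libraries: the log2 ratio of Klhl33 to Klhdc8b was -3.95, -3.71 and -3.63 in sham replicates 1, 2 and 3 and -4.64, -6.04 and -6.15 in PAB replicates 1, 2 and 3, without overlap between the groups. Of the exonic bases of Klhdc8b, 220 (2.61%) lie opposite Ccdc71, and stretches of up to 130 bases recur in 5 other genes.

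Klhl11 and Klhl34 moved the other way. Klhl11, a BTB-kelch gene whose human protein is a known target of autoantibodies in paraneoplastic encephalitis, lies on chromosome 11 (minus strand, 100462614 to 100472741). It had 23.6, 15.9 and 28.3 normalized reads in sham replicates 1, 2 and 3, and 53.3, 56.5 and 50.7 in PAB replicates 1, 2 and 3. The highest sham library stood well below the lowest PAB library. The group means were 22.6 ± 6.27 (SD, n = 3) under sham and 53.5 ± 2.94 (SD, n = 3) after banding. Klhl11 thus had a log2 change of 1.24 in limma, its standard error being 0.35 and its adjusted p 0.00664. The PAB coefficient of variation of 5.50% was below the 13.8% that counting error gives for this number of reads, and under median-ratio scaling it was 12.6%.

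Klhl34, a BTB-kelch gene of a single exon on chromosome X (plus strand, 157818435 to 157820369), had few reads in sham. Sham replicates 1, 2 and 3 held 6, 0 and 2 reads, or 5.67, 0 and 2.10 normalized reads. PAB replicates 1, 2 and 3 held 28, 12 and 12 reads, or 29.8, 11.9 and 11.9 normalized reads. All PAB libraries were above all sham libraries, but PAB replicate 1 was far above the other two. The group means were 2.59 ± 2.87 (SD, n = 3) under sham and 17.9 ± 10.3 (SD, n = 3) after banding. In limma Klhl34 changed by 2.65 on the log2 scale at an adjusted p of 0.0087, and its standard error of 0.80 was the widest of the 5. With a pseudocount of 0.1 in place of 1 it was 3.91 (standard error 1.47), so its size depends on that choice. Without PAB replicate 1 it was 2.23, without sham replicate 1 it was 3.29, and without sham replicate 2, the library at 0, it was 1.92, each still past the threshold. A count of 0 in that library allows up to 3 reads, for counting error only. Neither Klhl34 nor Klhl11 overlapped another gene's exons or shared a stretch of 100 bases with one.

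Compared per kilobase of gene length, the order of the 5 genes differed between the groups. In sham, Klhdc8b was highest with a level of 108.9 ± 11.8 normalized reads per kilobase (SD, n = 3), followed by Klhl38 with 32.8 ± 14.1. Klhl33 followed with 10.7 ± 1.18, Klhl11 with 9.45 ± 2.62 and Klhl34 with 1.34 ± 1.48 normalized reads per kilobase. The libraries of Klhl33 (9.76 to 12.0) and Klhl11 (6.64 to 11.8) overlapped, so these neighbours were not separated in sham. The sham level of Klhl34 was 0.54 without sham replicate 1 and 2.01 without sham replicate 2. In PAB, Klhdc8b was again highest with 52.4 ± 7.44 (SD, n = 3), but Klhl11 came next with 22.3 ± 1.23, then Klhl38 with 10.1 ± 1.40 and Klhl34 with 9.24 ± 5.34, and Klhl33 was last with 1.52 ± 0.73 normalized reads per kilobase. Klhl38 (8.98 to 11.7) and Klhl34 (6.15 to 15.4) overlapped there, and without PAB replicate 1 the level of Klhl34 was 6.16. The PAB libraries of Klhl33 lay between 1.10 and 2.37, near those of Klhl34 in sham (0 to 2.93).

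These levels rest on the gene length given in the table. For Klhdc8b it is 8419 bases over 15 annotated transcripts, while the transcript with the longest coding part has 2956 bases, and with that length its level was 310.2 in sham and 149.1 in PAB, with the order of the 5 genes as before in both groups. For Klhl34 the table's 1935 bases hold a coding part of 1932 and hardly any untranslated sequence. RefSeq extends Klhl34 by 691 bases and Klhl11 by 5492 bases beyond the 3′ end in the table. Reads from there were not part of the values if the counting used the table's gene models. The level of Klhl38 has a further limit, since 1446 of its 2212 bases are shared with Gm15943. How reads from those bases were counted is unknown, so its place in both orders and its overlap with Klhl34 in PAB are uncertain.

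RefSeq promoter entries on GRCm38.p6 were found for 4 of the 5 genes, all but Klhl38, and the 250 bases before each start were searched on both strands for motifs known from muscle genes. These were the E-box, spelled CANNTG, the MCAT element, spelled CATTCC, the GATA site, spelled AGATAA, and the MEF2 and CArG motifs. The promoter of Klhl33, the gene that fell most, held a MEF2 match, CTATAATTAG, which begins 50 bases before the start. A MEF2 match was present in 2.92% of 32851 mouse promoter windows of the same length. An E-box, present in 66.2% of those windows, begins 39 bases before the same start and does not overlap the MEF2 match. The window is shown because it holds the single MEF2 match found before these genes, with both matches in capitals (RefSeq, GRCm38.p6, chr14:50897484-50897733, minus strand, printed 5′ to 3′ in the direction of the gene). The gene model of the table takes in the last 24 bases of this window.
Klhl33: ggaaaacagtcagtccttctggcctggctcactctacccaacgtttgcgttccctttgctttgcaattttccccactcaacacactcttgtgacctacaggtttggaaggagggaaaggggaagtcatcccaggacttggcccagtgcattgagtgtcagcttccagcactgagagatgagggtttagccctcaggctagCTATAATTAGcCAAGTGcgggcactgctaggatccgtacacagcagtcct

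A second annotated start of Klhl33 had 1 MCAT match, in 12.6% of all windows, and none of the other motifs. Both annotated starts of Klhdc8b and the start of Klhl34 had 1 E-box each and no other match. The window of Klhl11 held none of the 5 motifs. No GATA match (9.99% of all windows) or CArG match (1.47%) was found before any of the 4 genes. A match describes these letters and is no evidence of binding.

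The genes that work with kelch adaptors were followed through lists. Of 24 core parts of cullin-RING ligases, such as Cul3 and its partner Rbx1, and of 24 other kelch-repeat genes, such as Keap1 and Kbtbd13, 0 were in the table, so they were not analysed here. Of 24 ubiquitin ligases and adaptors known from muscle, 5 were in the table, and 4 of them were lower in PAB and 1 higher in limma, where 53% and 47% of all genes in the table were. The median log2 fold change of the lower 4 was -1.58, beside -1.45 over all lower genes. These 4 belong to the ankyrin-repeat and SOCS-box (Asb) family, adaptors of the cullin CUL5. Asb15 had 131.5, 188.0 and 262.2 normalized reads in sham replicates 1, 2 and 3 and 30.9, 52.6 and 33.8 in PAB, a fitted log2 change of -2.26 with standard error 0.34. Asb14 had 487.1, 548.9 and 467.7 in sham and 84.1, 156.7 and 196.7 in PAB, a fitted log2 change of -1.86 with standard error 0.32. Asb5 had 110.7, 121.6 and 124.8 in sham and 44.7, 37.7 and 63.6 in PAB, and Asb12 fell least, with a log2 fold change of -1.01. Trim54, a RING-finger ligase of the sarcomere also called MuRF3, rose from 212.8, 243.1 and 271.6 normalized reads to 629.4, 618.8 and 456.0, a fitted log2 change of 1.22 with standard error 0.24. Adjusted p-values in limma were at most 0.00771 for these 5 genes, and under median-ratio scaling Asb12 no longer passed (log2 fold change -0.42, unadjusted p = 0.207). Exons of Trim54 overlap an antisense gene over 382 bases, 26.6% of its exonic length, and those of Asb5 overlap Spcs3 over 75 bases.

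Among genes of other BTB families, found by the symbol prefixes Kctd, Btbd, Zbtb, Abtb and Spop, 3 were in the table and all 3 were higher in PAB, where 47% of all genes in the table were, and nothing about these families is read from that count. Zbtb16, which encodes the transcription factor PLZF, had 13.2, 12.2 and 12.6 normalized reads in sham and 75.6, 32.7 and 27.8 in PAB replicates 1, 2 and 3, with a fitted log2 change of 1.62 and an adjusted p of 0.00619 in limma. Zbtb8b, a zinc-finger relative, and Kctd8, an auxiliary subunit of GABA-B receptors, changed by 1.25 and 2.14 on the log2 scale at adjusted p of 0.0153 and 0.00774 in limma. Kctd8 had 5.67, 16.8 and 2.10 normalized reads in sham and 39.4, 30.7 and 23.8 in PAB, and its log2 fold change was 2.80 without sham replicate 2 and 1.54 without sham replicate 3. The median of the 3 was 1.62, beside 1.45 over all higher genes. Zbtb8b no longer passed without PAB replicate 2 (log2 fold change 0.96, limma, unadjusted p = 0.0765).

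**Figure D2:**
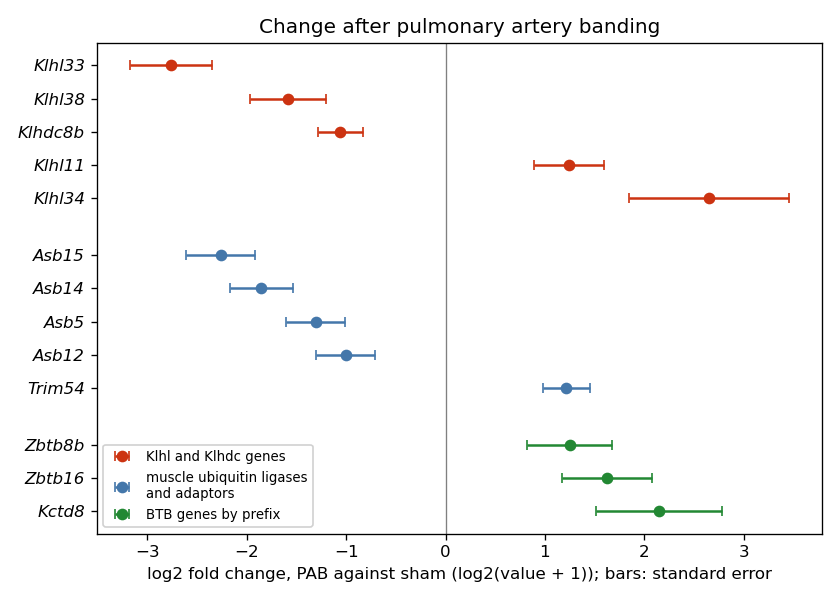
Log2 fold change of PAB against sham (horizontal axis, limma on log2(value + 1), 3 libraries a group) with its standard error, for the Klhl and Klhdc genes, the muscle ubiquitin ligases and adaptors, and the BTB genes found by prefix. The Klhl and Klhdc genes lie on both sides of 0, from -2.77 to 2.65, while the 4 Asb genes lie below 0 and Trim54 and the 3 BTB genes above it.

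The contractile and load-responsive genes in the same libraries give the setting. Of 41 genes of the sarcomere and Z-disc, 6 were in the table. Xirp2, Acta1, Ankrd1, Myoz1 and Des stood higher after banding, with log2 fold changes of 4.09, 4.03, 1.68, 1.58 and 0.98, and Tcap, the titin cap, stood lower with -1.17. Des did not pass without sham replicate 1 (0.97, limma, unadjusted p = 0.050) or without sham replicate 2 (0.98, limma, unadjusted p = 0.0539). The natriuretic peptide genes Nppa and Nppb had log2 fold changes of 5.60 and 2.43, and 61.5% of the exonic bases of Nppa overlap an antisense gene. Nppa was highest in PAB replicate 1, with 21964 normalized reads against 9218 and 4995 in replicates 2 and 3. That library also held the highest PAB values of Klhl34 and Klhl33 and the lowest of Klhdc8b, and the fits without it gave log2 fold changes of 2.23 for Klhl34, -3.10 for Klhl33 and -0.94 for Klhdc8b.

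For each of the 5 genes, the genes in the table with the most similar pattern were found by Pearson's r of log2(value + 1) over the 6 libraries, among 450 genes with a mean of at least 50. All points share the same 2 groups, which carry most of each r, and r is given as a description. Klhl33 was most like Nr3c2, the mineralocorticoid receptor (r = 0.989), Smim5 (0.986) and Cited1 (0.984). Klhl38 was most like Igfbpl1 (r = 0.990), Asb15 (0.981) and Rgs2, a regulator of G protein signalling (0.975). In Klhl38, Igfbpl1, Asb15 and Rgs2 alike, replicate 3 was the highest and replicate 1 the lowest of the sham libraries. These genes were picked by r over the same libraries, and Asb5 and Trim54 had that sham order too. Klhdc8b was most like Echdc2 (r = 0.996), Tnnt1, the slow skeletal troponin T (0.995), and Tfpt (0.995). Klhl11 was most like AC165271.1 (r = 0.993), the melanin-pathway gene Dct (0.984) and the neurotensin gene Nts (0.979), and Klhl34 like the ubiquitin ligase gene Lnx1 (0.976), the chemerin receptor gene Cmklr1 (0.973) and Xdh (0.961). Exons of AC165271.1 and Lnx1 lie across from exons of the other strand over 31.7% and 12.2% of their bases.

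Markers of cell types that RV tissue can hold were nearly all outside the table, so the makeup of the libraries could not be followed and its part in the values above was not tested. Of 14 cardiomyocyte markers only Pln was listed, at 21385, 21925 and 27039 normalized reads in sham replicates 1, 2 and 3 and 9037, 10319 and 12438 in PAB. Of 18 skeletal muscle markers, Casq1, Tnnt1 and Tnni2 were listed, with summed levels of 845.5, 810.8 and 688.0 in sham and 1120, 936.2 and 860.3 in PAB. The sum joins genes that moved apart. Casq1 went from 258.2, 186.1 and 186.7 normalized reads in sham to 910.6, 668.4 and 535.5 in PAB, where it was the most abundant. Tnnt1, the most abundant in sham, went from 548.5, 580.7 and 465.6 to 207.7, 264.8 and 311.9, and Tnni2 from 38.8, 44.0 and 35.7 to 2.13, 2.98 and 12.9. The single listed fibroblast marker of 12, Dpt, stood at 4720, 4759 and 4649 in sham and 1487, 2281 and 2511 in PAB. The single listed endothelial marker of 9, Vwf, stood at 1488, 1334 and 1283 in sham and 4792, 3251 and 1637 in PAB. C1qa, 1 of 11 immune markers, stood at 665.8, 700.4 and 642.9 in sham and 312.0, 270.7 and 346.7 in PAB. Of 10 smooth muscle and pericyte markers Cnn1 and Des were listed, with sums of 19042, 19353 and 19885 in sham and 57117, 36580 and 27519 in PAB, nearly all of it Des. Cnn1 alone went from 122.0, 105.7 and 121.7 to 680.5, 288.6 and 371.5. Nppa was the only listed marker of 6 for atrial cells, at 238.3, 192.6 and 191.9 in sham, and Dbh the only one of 6 for nerve, at 122.0, 150.6 and 99.6 in sham and 8.52, 5.95 and 13.9 in PAB. No listed marker was at 0 in any library, and 0 of 7 erythroid, 0 of 5 epicardial and 0 of 8 cell cycle markers were listed. Whether these kelch genes are expressed in the muscle cells of the RV, as a label of striated muscle would have it, was not tested, since the libraries are of whole tissue.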

How the data were processed

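RV tissue of 3 sham and 3 PAB libraries was analysed from 1 deposited table; groups and replicate numbers come from the sample labels, whose organism is mouse although their extraction text speaks of rat. According to the submitters' processing notes, HISAT2 2.0.5, StringTie 1.3.3b, featureCounts 1.5.0-p3 and the build mm10 were used, and the paper's methods add DESeq2. The file's name says FPKM, but the deposited signal is a read count over a size factor that the authors set once for each library, since 100% of values under 50 reads (165 to 215 values a library) came within 0.1 of a whole number of reads. Coordinates in the table equal those of GENCODE M21 (GRCm38) for the 5 genes. Other columns hold the authors' own comparison of the groups (fold changes and p-values) and were not used. The depth of whole libraries is unknown, since only selected genes are listed.

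Values were fitted over all 617 genes with limma 3.58.1 in R 4.3.3 on log2(value + 1), a scale that understates the change of low genes (lmFit, eBayes with trend, two-sided, minimum mean 0.1, unadjusted p under 0.05, Benjamini-Hochberg adjustment over the 617), after a test on simulated data. The minimum removed no gene. Named genes are the 5 members, the 3 most similar genes of each, and listed genes of the pathway lists; listed markers of cell types are given by their values. Members, through the symbol rule, and lists were chosen with earlier results of these data known. Shared stretches (at least 100 bases, 95% identity) were searched with blastn 2.17.0, and other steps used Python 3.11.15 with pandas 2.3.3, numpy 2.4.6 and matplotlib 3.10.9. Counting intervals cover counting error only. Alternatives were a pseudocount of 0.1, other minimum means, the replicate block, eBayes without trend, scaling by median ratio and leaving out each library.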

Additional observations from a re-analysis of the deposited data

How the results depend on the processing

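All 5 Klhl and Klhdc genes kept their direction and stayed past the threshold with eBayes without trend, at a pseudocount of 0.1, at other minimum means (which removed no gene) and without each library in turn. Of all 617 genes in the table, 286 were called higher and 327 lower without trend, and 290 and 327 at a pseudocount of 0.1. With 1 library left out, 274 to 287 were called higher and 317 to 327 lower, so nothing about the members is read from their count. Without 1 library, the log2 fold changes ran from -3.10 to -2.60 in Klhl33, from -1.86 to -1.26 in Klhl38, from -1.15 to -0.94 in Klhdc8b, from 1.02 to 1.42 in Klhl11 and from 1.92 to 3.29 in Klhl34, which at a pseudocount of 0.1 was at 3.91. Median-ratio scaling left 2 lower genes in place of 3, because Klhdc8b went to -0.47, and brought the lower calls over the whole table from 327 to 216 with 290 higher calls, and by its construction it shifts PAB relative to sham by 0.59 on the log2 scale. Since the listed genes were selected on this contrast, the calls under that scaling do not test the genes. The 2 groups share replicate numbers, and the deviations of same-numbered libraries correlated at -0.06, -0.05 and -0.20 across genes. Whether the numbers pair libraries is not given in the sources used here, and these values over selected genes cannot decide it. With the replicate block, limma called 289 genes higher and 327 lower, all 5 members among them with the same direction. Median-ratio scaling also moved the coefficient of variation of Klhl11 in PAB from 5.50% to 12.6% and that of Klhdc8b in sham from 10.9% to 4.0%. Of 30 other genes (the most similar ones and those of the pathway lists), 27 kept their call under median-ratio scaling, and Asb12, Tfpt and Tnnt1 did not; the cell type markers outside these 30 were not followed through the alternatives. The level per kilobase of Klhdc8b under the transcript length was chosen after the data were seen. The planned count-model tests were not run, since in 5 of 6 libraries too few low values are listed for the criterion on recovering whole reads. At most 28 reads lie behind each value of Klhl34, and at most 14 behind each PAB value of Klhl33, which limits the precision of their log2 fold changes.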
